A study of Mus musculus with 26 samples.

Results

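The comparison was of mouse neural stem cells that over-expressed the fusion MYBQKI6 and had the cells' own Qk suppressed with cells that over-expressed the same fusion and had LacZ suppressed. Members were chosen by their sample descriptions, and they are 8 of the 26 samples of the series: 5 with Qk suppressed and 3 with LacZ suppressed. All 8 samples were cells from C57BL6 wild-type embryos at E14.5, transduced with lentivirus, and every sample carried the fusion, so the effect of the fusion itself cannot be read from them. LacZ is a bacterial gene that mouse cells lack, so its suppression serves as the control for suppression as such. The labels do not name the agent that suppressed Qk or LacZ. Each title ends in a pair of numbers, and the Qk samples are called here 5_2, 6_1, 6_3, 9_1 and 9_3, while the LacZ samples are called L_1, L_2 and L_3. The labels do not say what the first numbers 5, 6 and 9 or the second numbers 1, 2 and 3 stand for. They also do not say that samples came from separate cultures or embryos, so a p-value here speaks only of the spread among these arrays, which may be technical. The remaining 18 samples, labelled as pools, were not compared.

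Qk is the mouse gene for QKI, a member of the STAR family of RNA-binding proteins that binds short motifs in RNA and acts on splicing, RNA stability and translation. In the brain it is known above all from glial cells, where its loss in the quaking mouse leaves myelin thin. MYB is a transcription factor of progenitor cells, and fusions of MYB with QKI occur in angiocentric glioma, a tumour of the young brain. In that tumour the rearrangement also removes a copy of QKI, which is the setting that suppression of Qk beside the fusion resembles.

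RNA was read on an Affymetrix array with several probe sets along most genes, and a gene's signal is the mean log2 value of the probe sets that name it alone. Qk signal was modestly lower in most of the Qk-suppressed samples. A gene is called when its limma test, with the second number as a block, has a Benjamini-Hochberg adjusted p under 0.05 over all 23152 genes. One predicted gene, Gm5067, was called, which is 0.00432% of the genes tested. Genes of the interferon response leaned to lower signal with Qk suppressed and genes of the integrated stress response leaned to higher signal, but none of their members was called. The second numbers gave many more calls: 1385 genes, 5.98% of those tested, were called between them.

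Neural stem cell markers were bright on all 8 arrays, save a few. Vim, an intermediate filament of neural progenitors, had 11.4 to 11.7 in Qk samples and 11.3 to 11.5 in LacZ samples on the log2 scale. Sox2, a transcription factor of neural stem cells, had 9.52 to 10.1 in Qk samples and 9.69 to 10.0 in LacZ samples. Of 15 measured neural stem cell and radial glia markers, 14 lay above the median of all genes, and the exception was Prom1. Markers of myelinating oligodendrocytes, microglia and vessels were mostly below that median, with 4 of 13, 2 of 10 and 2 of 13 above it. Of oligodendrocyte precursor markers 7 of 15 lay above it, of astrocyte markers 11 of 17 and of neuron markers 9 of 17. In the precursor list Olig2, a factor of the oligodendrocyte lineage, was bright. It had 10.7 to 11.4 in Qk samples and 10.3 to 11.2 in LacZ samples. Probe sets differ in brightness for the same amount of RNA, so these ranks are approximate. In bulk RNA, fewer cells of a type and less RNA per cell cannot be told apart.

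Samples with the same second number resembled each other. The first principal component of the 8 arrays, with 32.6% of the variance, ordered them by second number and not by the suppressed gene. On the second component, with 26.0%, sample L_3 stood apart from the other arrays. The SD over genes of the difference between a Qk sample and the LacZ sample of its second number was 0.32 to 0.33 for the pairs with L_1 and L_2, and 0.46 for both pairs with L_3. Samples 6_1 and 9_1 share L_1, and samples 6_3 and 9_3 share L_3, so the 5 paired differences are not independent.

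The suppressed gene was examined first. Qk signal was 9.35 in sample 5_2, 9.30 in 6_1, 9.46 in 6_3, 9.70 in 9_1 and 9.58 in 9_3 among the Qk-suppressed samples, against 9.68, 9.70 and 9.74 in L_1, L_2 and L_3. Sample 9_1 lay within the range of the LacZ samples, and the other 4 Qk samples lay below it. The Qk mean was 9.48 ± 0.16 (SD, n = 5), against a LacZ mean of 9.70 ± 0.03 (SD, n = 3). The fitted difference was -0.24 on the log2 scale (SE 0.15, 95% confidence interval -0.56 to 0.08), a signal 1.18-fold lower, with a limma adjusted p = 0.726. An exact two-sided permutation test over the 56 arrangements of the 8 samples gave p = 0.0893 for the difference of means, and the smallest p it allows is 0.0179. This test moved samples freely across second numbers and so left out the block. Lower Qk signal in the libraries labelled as Qk-suppressed was therefore not shown beyond the spread between samples.

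By first number, the difference of Qk from the LacZ samples was -0.35 for number 5, -0.33 for number 6 and -0.06 for number 9. Number 5 is sample 5_2 alone, so its value is the difference of that sample from L_2. The difference of number 6 from number 9 was -0.26 (SE 0.21, limma adjusted p = 0.901), so the numbers were not shown to differ in Qk.

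The 15 probe sets of Qk did not move as one. The 6 with the identifiers 17340758 to 17340763 had differences between -0.81 and -0.37, and 7 of the other 9 lay between -0.17 and -0.02 while 17340767 was at 0.12. Probe set 17340763 had 7.98, 8.36, 8.36, 9.05 and 8.66 in Qk samples 5_2, 6_1, 6_3, 9_1 and 9_3, against 9.26, 9.05 and 9.32 in L_1, L_2 and L_3. Samples 9_1 and L_2 were level to 2 decimals and the other Qk samples lay below all LacZ samples, with a difference of -0.79 (SE 0.26, limma adjusted p = 0.656 over all probe sets). Probe set 17340771 ran the other way, at 6.24 to 7.40 in Qk samples and 5.55 to 6.24 in LacZ samples, a difference of 0.81 (SE 0.33, limma adjusted p = 0.683). No probe set of Qk was called, and neither was any of the 269751 probe sets on the array (0% called, with 19626 at an unadjusted p under 0.05 in limma). The fusion holds sequence of QKI and of MYB, and whether a given probe set also reads the fusion was not tested.

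**Figure D1:**
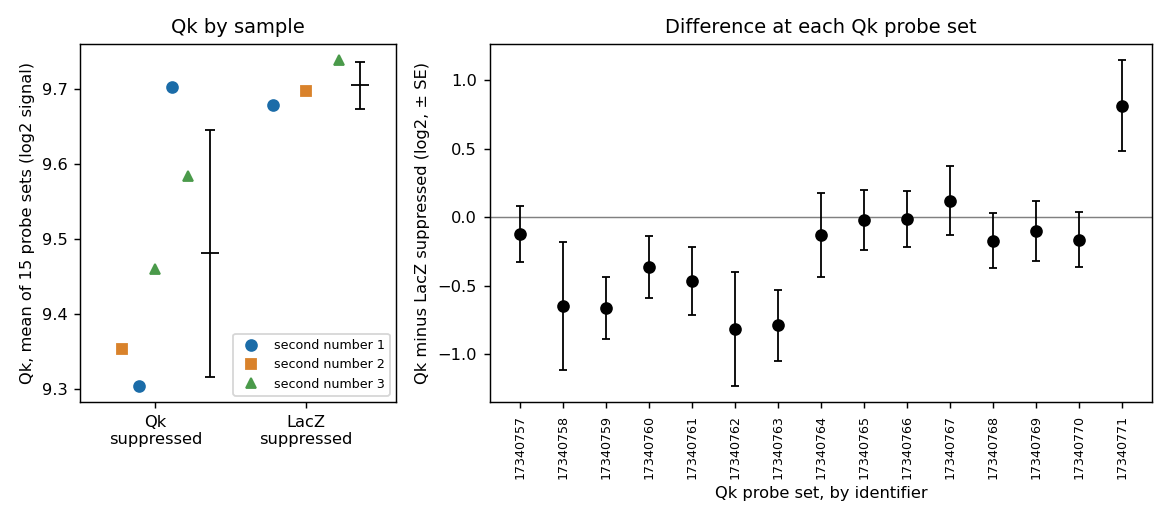
The left panel plots Qk signal (log2, mean of 15 probe sets) in the 5 Qk-suppressed and 3 LacZ-suppressed samples, with colour and shape for the second number and mean ± SD as black bars. The right panel plots the fitted difference, Qk minus LacZ suppressed (log2, ± SE), at each probe set in the order of the identifiers: the run from 17340758 to 17340763 lies below 0 and 17340771 lies above it.

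Myb probe sets may read the fusion as well as the cells' own gene, which was not tested. Myb averaged 6.44 ± 0.28 (SD, n = 5) with Qk suppressed and 6.35 ± 0.20 (SD, n = 3) with LacZ suppressed. The difference was 0.14 (SE 0.15, limma adjusted p = 0.836). Of the other STAR proteins, Khdrbs1, the splicing factor also called Sam68, differed by -0.05, Khdrbs3 by 0.05, Khdrbs2 by -0.32 and the branch-point binding protein Sf1 by 0.24. None was called.

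Gm5067 was the called gene. It is a pseudogene in the RefSeq annotation, it is read by 1 probe set, and as a predicted gene it fell outside the rule for naming genes and was chosen after its values were seen. Its signal was 5.36, 4.78, 4.84, 4.50 and 4.75 in Qk samples 5_2, 6_1, 6_3, 9_1 and 9_3, against 2.94, 3.07 and 3.05 in L_1, L_2 and L_3. The LacZ values were dim, below the 25th percentile of the probe sets on their arrays (3.74, 3.71 and 3.75). All 5 Qk samples lay above all 3 LacZ samples, as was the case for 2% of the genes tested. Gm5067 rose by 1.88 on the log2 scale with Qk suppressed (SE 0.16), 3.68-fold, with a limma adjusted p = 0.00209. When each gene was represented by its brightest probe set, the value of Gm5067 stayed the same and its adjusted p was 0.122. The probe set of Gm5067 was also not called in the limma fit over all single probe sets. The smallest adjusted p in that fit was 0.591.

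No other gene was called, and 1734 genes had an unadjusted p under 0.05 in limma. Of the genes tested, 3.66% were higher with Qk suppressed at that level and 3.83% were lower. The naming rule leaves out predicted, clone, small RNA, receptor and pseudogene names. Values of the genes with the smallest p in each direction among the other names follow, with no claim that they changed.

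Among those with higher signal were Iqcj (0.79, limma adjusted p = 0.254), which encodes an IQ-motif protein, and Macroh2a2 (0.61), a histone variant found in silenced chromatin. Macroh2a2 had 5.68, 5.84, 5.42, 5.63 and 5.64 in the Qk samples, in the order used above, against 5.04, 5.07 and 5.01 in L_1, L_2 and L_3, and the groups did not overlap. Selenbp1, a selenium-binding protein, differed by 0.66 but overlapped, at 6.01 to 7.84 in Qk samples and 5.34 to 7.02 in LacZ samples. The others were Prp2, the beta-defensin Defb15, BC048507, Spink4, Cmtm2a, the deiodinase Dio1 and the purine nucleoside phosphorylase Pnp2, with differences of 0.63 to 1.17. Of these, Prp2, Spink4, Cmtm2a and Pnp2 were dim, with mean signals at or below the 15.1 percentile of all genes.

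Among those with lower signal the smallest p within the rule belonged to Oas1g, an interferon-induced oligoadenylate synthetase. Outside the rule, 2210010C04Rik (-1.12, limma adjusted p = 0.141), Mir7-1 and Mir466h had smaller p. Oas1g had 2.53, 4.23, 1.64, 3.80 and 2.32 in Qk samples 5_2, 6_1, 6_3, 9_1 and 9_3, against 5.13, 3.31 and 3.51 in L_1, L_2 and L_3. Each Qk sample lay below the LacZ sample of its second number, and the difference was -1.17 (SE 0.20, limma adjusted p = 0.254). Adprm, a phosphohydrolase of ADP-ribose, had 4.85 to 5.54 in Qk samples and 5.84 to 6.09 in LacZ samples, a difference of -0.67. The other 8 were dim, with mean signals at or below the 14.5 percentile of all genes: Lce1e, Pramel16, Mcpt9, BC053393, Fbxw25, Cyp3a13, Lilrb4a and Klra1, with differences of -1.59 to -0.64.

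The microRNA gene Mir7-1 was examined because QKI proteins have been described to bind the primary transcript of miR-7-1 in glial cells. It lies inside Hnrnpk, which encodes an RNA-binding protein. It was chosen after its values were seen. RefSeq (GRCm38.p6) places the hairpin at chr13:58392779-58392886 on the minus strand. Its mature product has the same sequence as that of Mir7-2 and shares the seed of miR-7b, the product of Mir7b, and the sequences are shown so that these products can be set side by side. Capitals mark the seed, bases 2 to 8 of the mature strand.
Mir7-1 hairpin: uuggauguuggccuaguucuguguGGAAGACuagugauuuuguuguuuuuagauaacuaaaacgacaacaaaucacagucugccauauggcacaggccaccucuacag
Mir7-2 hairpin: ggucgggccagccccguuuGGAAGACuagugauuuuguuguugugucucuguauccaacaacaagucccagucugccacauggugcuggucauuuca
miR-7a-5p, from Mir7-1 and Mir7-2: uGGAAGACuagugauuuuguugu
miR-7b-5p, from Mir7b: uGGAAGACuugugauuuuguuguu

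Mir7-1 signal was 4.38, 5.25, 4.22, 5.44 and 4.19 in Qk samples 5_2, 6_1, 6_3, 9_1 and 9_3, against 6.05, 5.41 and 5.38 in L_1, L_2 and L_3. Every Qk sample lay below the LacZ sample of its second number, although sample 9_1 exceeded L_2 and L_3, and 5.67% of all genes were lower in all 5 such differences. The difference was -0.97 (SE 0.15), 1.96-fold lower, with a limma adjusted p = 0.235, so the gene was not called. Mir7-2 differed by 0.04 and Mir7b by -0.03. Mir466h (-1.14), Mir669a-3 (-0.94) and Mir467c (-0.76), also chosen after their values were seen, were lower in all 5 paired differences too. None was called, and lower signal was not particular to Mir7-1. The host gene Hnrnpk had 8.43 to 8.98 in Qk samples and 8.49 to 8.95 in LacZ samples, a difference of -0.04. One probe set reads each of these microRNA genes, and a signal on this array does not separate the hairpin from the host transcript.

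The microRNA names as a class also leaned to lower signal. Of 506 genes with such names, 355 were lower with Qk suppressed and 96 (19.0%) were so at an unadjusted p under 0.05, against 17 higher, with a median difference of -0.16. The class was dim, with a median rank at the 16.2 percentile of all genes. Names of olfactory and vomeronasal receptors, which were dimmer still, had a median of -0.16 too, with 222 of 1393 (15.9%) lower at that level. Without L_3 the median was -0.08 for the microRNA names, with 56 (11.1%) lower, and -0.05 for the receptor names, with 102 (7.32%) lower. Dim signal and sample L_3 thus moved with this lean, and their part in it was not tested.

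**Figure D2:**
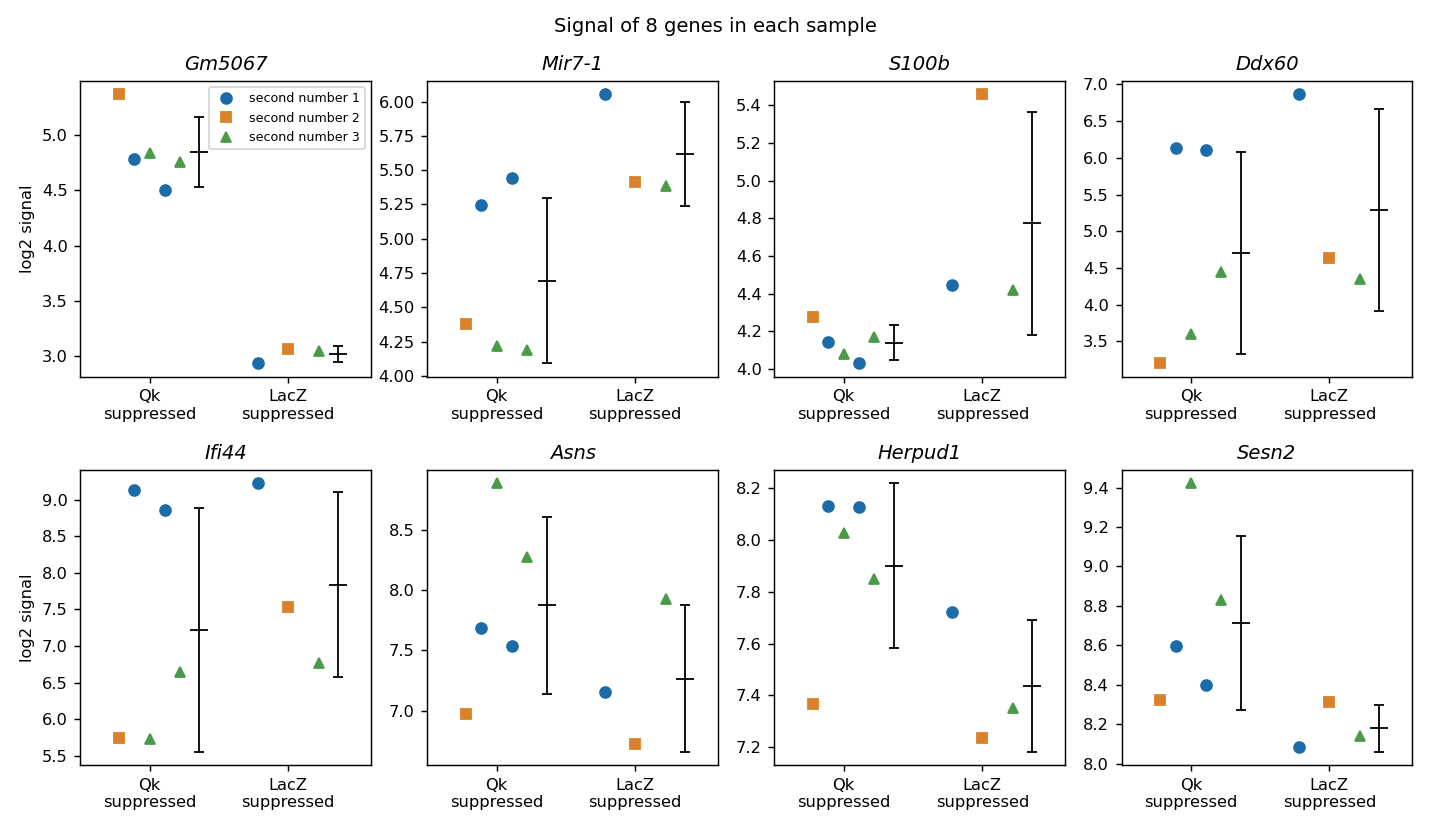
Each panel plots the log2 signal of a gene in the 5 Qk-suppressed and 3 LacZ-suppressed samples, with colour and shape for the second number and mean ± SD as black bars. Gm5067 and Sesn2 are higher in all Qk samples and S100b is lower in all of them, while for Ddx60, Ifi44 and Asns the second number spreads the samples more widely than suppression does.

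Interferon response genes had lower signal in most samples with Qk suppressed. These genes are switched on when type I interferon or viral RNA is sensed, and their products block viral replication. Of 23 measured members, 20 were lower and 5 of these had an unadjusted p under 0.05, and the median difference was -0.32. Over all genes, 43.6% were lower and the median was 0.03. No member was called. The median of the paired differences was -0.75 for sample 5_2, -0.32 for 6_1, -0.23 for 6_3, -0.27 for 9_1 and 0.24 for 9_3, so sample 9_3 ran against the others. Without sample 5_2 or L_2 the median was -0.13 with 17 of 23 lower, and without L_3 it was -0.45 with 22 lower.

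Ddx60, a helicase that aids the sensing of viral RNA, had 3.20, 6.13, 3.60, 6.11 and 4.45 in Qk samples 5_2, 6_1, 6_3, 9_1 and 9_3, against 6.86, 4.63 and 4.35 in L_1, L_2 and L_3. It was lower in 4 of 5 paired differences, and the fitted difference was -0.78 (SE 0.23, limma adjusted p = 0.549). Ifi44, an interferon-induced protein, had 5.74, 9.14, 5.73, 8.87 and 6.64 in the Qk samples in that order, against 9.23, 7.53 and 6.76 in L_1, L_2 and L_3. It was lower in all 5 paired differences, with a fitted difference of -0.78 (SE 0.27, limma adjusted p = 0.607) that was -0.40 without sample 5_2 or L_2. For both genes the ranges of the groups overlapped widely, and the samples with second number 1 were high in either group. Rsad2, the antiviral enzyme viperin, differed by -0.49, Ifit1, which binds viral RNA, by -0.38, and the antiviral GTPase Mx1 by -0.37. The members above 0 were Irf7, Ifit3 and Oas1a, at 0.12 to 0.14.

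Promoters of 3 of these genes are shown because their fitted differences were negative and each holds the interferon-stimulated response element. The element was searched as a pair of GAAA runs with any NN between them, on both strands. Capitals mark the matches, each window runs 5′ to 3′ on the strand of the gene, and sequence and positions are from RefSeq, GRCm38.p6.
Ifit1, chr19:34640765-34640884, plus strand: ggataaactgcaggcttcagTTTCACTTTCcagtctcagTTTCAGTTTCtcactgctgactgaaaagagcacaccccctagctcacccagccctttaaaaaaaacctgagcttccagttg
Ddx60, chr8:61927967-61928086, plus strand: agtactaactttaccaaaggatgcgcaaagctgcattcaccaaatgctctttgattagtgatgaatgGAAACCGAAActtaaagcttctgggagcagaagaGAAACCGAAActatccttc
Rsad2, chr12:26456473-26456592, minus strand: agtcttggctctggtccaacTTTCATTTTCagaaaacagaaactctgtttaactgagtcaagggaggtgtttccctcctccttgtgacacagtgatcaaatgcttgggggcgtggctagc

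The element stood in 13 of the 19 interferon response promoters that RefSeq's table holds, and in 3.49% of all 27025 promoters. It stood in none of the 14 promoters of cholesterol synthesis genes. The interferon response promoters that held it included those of Ifit3 and Oas1a, whose fitted differences were above 0. Ifi44 and Mx1, lower in all 5 paired differences, had no promoter among the matches. A match describes the letters only, and its relation to the lower signal was not tested.

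Genes of the integrated stress and unfolded protein response had higher signal with Qk suppressed. These genes answer a shortage of amino acids or unfolded protein in the endoplasmic reticulum, the first arm through the transcription factor Atf4. All 21 members had a fitted difference above 0, where 56.4% of all genes did, and their median was 0.23. The median of the paired differences was 0.09 for sample 5_2, 0.26 for 6_1, 0.41 for 6_3, 0.13 for 9_1 and 0.43 for 9_3, above that of all genes in each. Of the 21, 10 were higher in all 5 paired differences, as were 9.02% of all genes, and 4 had an unadjusted p under 0.05. No member was called, and without L_3 the median was 0.17 with 4 members below 0. With the brightest probe set for each gene it was 0.20, also with 4 members below 0.

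Asns, asparagine synthetase, had 6.98, 7.69, 8.89, 7.54 and 8.27 in Qk samples 5_2, 6_1, 6_3, 9_1 and 9_3, against 7.15, 6.72 and 7.92 in L_1, L_2 and L_3. It was higher in all 5 paired differences, and the fitted difference was 0.48 (SE 0.17, limma adjusted p = 0.607). Herpud1, a protein of the endoplasmic reticulum that aids the disposal of unfolded proteins, had 7.37, 8.13, 8.02, 8.13 and 7.85 in the Qk samples in that order, against 7.72, 7.24 and 7.35 in L_1, L_2 and L_3. Its difference was 0.40 (SE 0.14, limma adjusted p = 0.607). Sesn2, a stress sensor that is also a p53 target, had 8.32 to 9.42 in Qk samples and 8.08 to 8.31 in LacZ samples, a difference of 0.51 (SE 0.20, limma adjusted p = 0.611) that was 0.24 without L_3. Chac1, an enzyme that breaks down glutathione, differed by 0.39, or 0.62 without L_1, and the chaperone Hspa5 by 0.27. Sample 6_3 was the highest of all 8 for Asns and Sesn2. Atf4 itself differed by 0.16 and its target Ddit3 by 0.06.

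**Figure D3:**
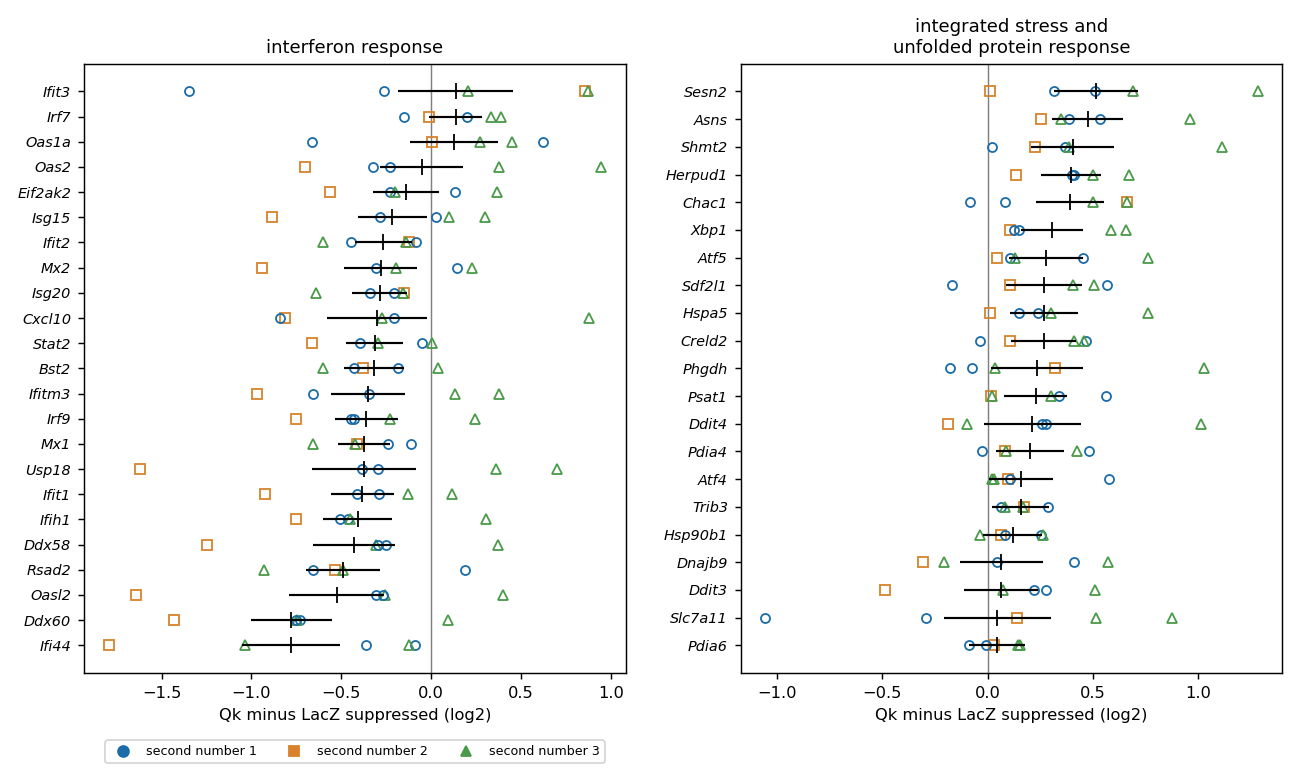
Open symbols are the differences of each Qk sample from the LacZ sample of its second number (log2), by gene, and black bars are the fitted difference ± SE. Among 23 interferon response genes 20 fitted differences lie below 0, and all 21 of the stress response genes lie above 0, with the samples of second number 3 spread widely.

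The remaining lists had medians between -0.08 and 0.17, where the median of all genes was 0.03. None held a called member. Of the described QKI targets, which QKI binds or splices in glia, vessels and other tissues, 11 of 16 measured members were higher and 5 lower, with a median of 0.08 that was -0.06 with the brightest probe set for each gene and 0.05 without sample 6_3, 5_2 or L_2. Cdh5, the cadherin of endothelial junctions, had 3.73 to 3.95 in Qk samples and 4.00 to 4.44 in LacZ samples, a difference of -0.38 (SE 0.14, limma adjusted p = 0.607). All Qk samples lay below all LacZ samples for Cdh5, as for 1.39% of genes. Sirt2, a deacetylase of myelinating cells, differed by 0.32, or 0.20 without L_1, and Mbp, myelin basic protein, by 0.04. Splicing factors had a median of -0.01, with 13 of 29 higher, and with a sample left out it ranged from -0.02 to 0.02. Genes of endosome and lysosome had a median of 0.03, with 19 of 31 higher, and a range of -0.02 to 0.06.

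Markers of other cell types gave few differences. Of 17 astrocyte markers 7 were higher and 10 lower, with a median of -0.06 that was -0.15 without L_1, -0.01 without sample 9_3 and 0.00 without 5_2 or L_2. S100b, a calcium-binding protein of astrocytes, had 4.28, 4.14, 4.08, 4.03 and 4.17 in the Qk samples in the order used above, against 4.45, 5.46 and 4.42 in L_1, L_2 and L_3. All Qk samples lay below all LacZ samples, L_2 was the highest, and the difference was -0.56 (SE 0.17, limma adjusted p = 0.576). Without L_2 or sample 5_2 it was -0.33. Aqp4, the water channel of astrocyte endfeet, differed by -0.49. Gfap, the filament that defines astrocytes, differed by 0.02.

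Neuron markers had a median of 0.17, with 13 of 17 higher, and paired medians of 0.20 for sample 5_2, 0.28 for 6_1, 0.19 for 6_3, -0.03 for 9_1 and 0.02 for 9_3. The median was 0.06 without sample 5_2 or L_2 and 0.09 without 6_1. The interneuron factor Dlx2 differed by 0.35, or 0.17 without L_3. Neural stem cell markers had a median of 0.05 that was 0.02 without sample 6_3 and -0.01 without L_3, with 9 of 15 then lower. Among them Sox1 differed by 0.35, or 0.12 without L_3. Precursor markers of oligodendrocytes had a median of -0.08, or -0.05 without sample 9_1, and Olig2 differed by 0.28, or 0.13 without L_3. Vascular and fibroblast markers had a median of 0.11, or 0.04 without sample 5_2 or L_2. Myelinating oligodendrocyte markers had 0.04 and microglia and immune markers -0.02, and with a sample left out these ranged from -0.04 to 0.11 and from -0.07 to 0.14.

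The lists of cell division had more members higher than lower in the fit, but not in every sample. G2 and M phase genes had a median of 0.17, with 17 of 21 higher, and S phase genes 0.11, with 21 of 25 higher. In sample 9_3, however, 15 of 21 G2 and M phase genes were lower (median -0.16), and in 9_1 and 9_3 alike 15 of 25 S phase genes were lower (medians -0.07 and -0.02). The S phase median was 0.03 without sample 6_1, 0.20 without 9_1, 0.18 without 9_3 and 0.21 without L_3. The G2 and M phase median was 0.29 without sample 9_3 and 0.32 without L_3. Cdc25c, the phosphatase that starts mitosis, had 7.62, 6.01, 6.60, 5.85 and 6.14 in the Qk samples, against 5.47, 7.32 and 5.78 in L_1, L_2 and L_3. It was higher in all 5 paired differences, by 0.46 in the fit (SE 0.15, limma adjusted p = 0.606). Cdc45, a factor of replication origins, differed by 0.40. These medians rest on the block: without it they were -0.02 for G2 and M phase and -0.05 for S phase, and -0.10 for cholesterol synthesis, against 0.11 with it (0.05 without sample 6_1).

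The p53 targets had a median of 0.16, with 13 of 17 higher, and -0.01 without L_3. Immediate early genes had a median of 0.10, with 15 of 19 higher, and 0.01 without L_3 and 0.17 without L_1. In that list the nuclear receptor Nr4a2 differed by 0.46, or 0.13 without L_3. The Notch list had 0.07, with its ligand Jag2 at 0.34, and -0.11 with the brightest probe set for each gene. With a sample left out its median ranged from 0.03 to 0.15. The Wnt readout had -0.01 (range -0.01 to 0.08), MAPK output and feedback -0.06 (-0.12 to 0.01), and extracellular matrix and adhesion 0.03 (0.01 to 0.07). Genes listed as raised by MYBQKI6 in the pool samples had a median of 0.08, with 13 of 16 higher, but -0.04 with 10 of 16 lower without L_3, and 0.15 without L_1. Genes listed as lowered had -0.08, with 8 of 10 lower, but -0.14 with 10 of 10 lower without L_3, -0.13 without sample 9_3, -0.03 without L_1, and -0.02 without 5_2 or L_2. These last lists were chosen from values of the same series, and no member of either was called.

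**Figure D4:**
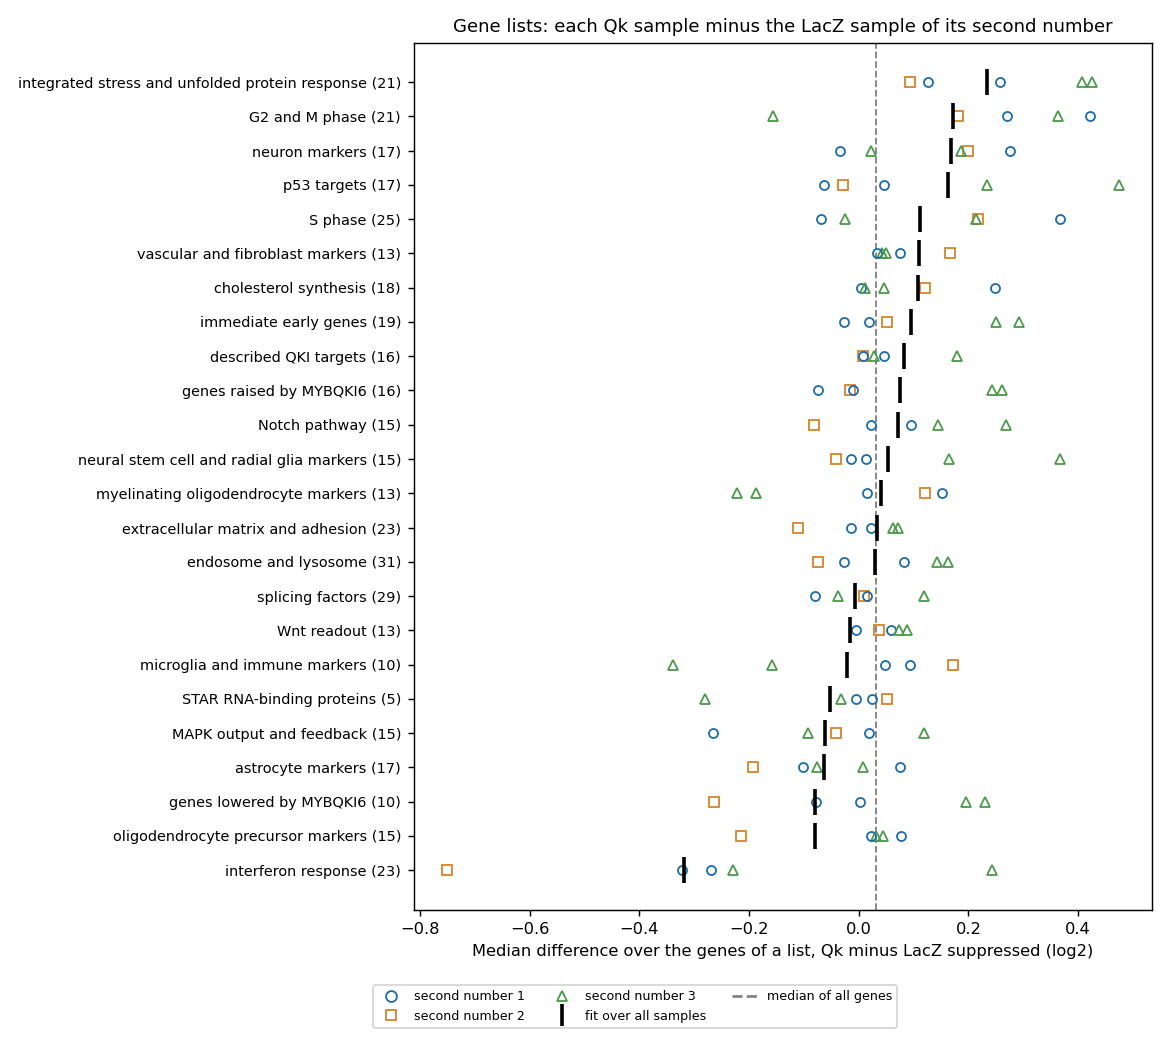
For each of 24 gene lists, with the number of measured genes in brackets, open symbols give the median difference of each Qk sample from the LacZ sample of its second number (log2) and black bars the median of the fitted differences. The interferon response lies lowest at -0.32 and the integrated stress response highest at 0.23, and the dashed line marks the median of all genes at 0.03.

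Because QKI acts on splicing, each probe set was also set against the others of its gene. In 16048 genes with enough probe sets above the filter on dim signal, diffSplice of limma called 887 of 174941 probe sets (0.507%), in 832 genes. Of these, 595 were higher relative to their gene with Qk suppressed and 292 lower. The first were in Birc6, an inhibitor of apoptosis, in Sptlc2, a subunit of the enzyme that starts sphingolipid synthesis, and in the adaptor protein gene Ap3b1. The Birc6 probe set 17339656 had 5.45, 5.04, 5.26, 5.13 and 5.16 in the Qk samples, against 3.56, 1.92 and 3.44 in L_1, L_2 and L_3, while Birc6 as a gene differed by 0.04. The others of the first 10 were in Capn7, Pdxdc1, Pde4dip, Wdfy2, Utrn, Fig4 and Fbxw7, all higher with Qk suppressed. Only 74 of the 887 lay at or above the median brightness of the probe sets tested. Probe sets of Ap3b1 and Utrn were not called without L_3 (adjusted p = 0.0564 and 0.695).

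This method takes a single spread for all probe sets of a gene, and in simulated data with unequal spreads it called probe sets that had not changed. When each probe set was instead tested as its difference from the mean of the others, with a spread of its own, 0% of probe sets were called by limma, 13050 had an unadjusted p under 0.05, and the smallest adjusted p was 0.649. None of the 16 described QKI targets measured had a called probe set with diffSplice. Over all genes 832 of 16048 had such a probe set, a share too small for this count to set the targets apart. Among the Qk probe sets, 17340771 was called by diffSplice (adjusted p = 0.029) and not by the other test.

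The Qk samples of first numbers 6 and 9, with second numbers 1 and 3 each, were compared directly. Number 6 minus number 9 called 4 genes (0.0173%), all lower in number 6, with a limma adjusted p = 0.0279 for each. Gbp11, of the interferon-induced guanylate-binding protein family, had 3.64 and 3.69 in samples 6_1 and 6_3, against 5.60 and 5.47 in 9_1 and 9_3. It fell by 1.87 (SE 0.23). The small nucleolar RNA gene Snora36b had 3.14 and 3.01, against 5.56 and 5.34, and fell by 2.37. Snord111, another gene of that class, had 6.13 and 6.03 against 7.75 and 8.14 and fell by 1.87, and the pseudogene Tmem181b-ps fell by 1.66. The 83 small nucleolar RNA names had median paired differences of -0.62 in sample 6_1, 0.07 in 6_3, 0.09 in 9_1 and 0.53 in 9_3. Whether Snora36b and Snord111 differed beyond their class was not tested. Sample 5_2 lay at 3.35 for Gbp11, and the LacZ samples at 3.81 to 4.45. Small RNA and pseudogene names lie outside the naming rule and were named after their values were seen. None of the 4 was called without sample 6_1 (adjusted p = 0.0807 to 0.126), and Snord111 and Tmem181b-ps were not called without 6_3 (adjusted p = 0.0714 and 0.101). Neither without the block nor with the brightest probe set for each gene were these 4 called.

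Second numbers marked the widest differences among the 8 samples. The test was an F test of limma for second numbers 1, 2 and 3 within the same fit, and it was added after the data were seen. Of the 1385 genes called, 508 were highest in second number 1, 724 in number 2 and 153 in number 3. Of 21 G2 and M phase genes 20 were called, of 25 S phase genes 22 and of 18 cholesterol synthesis genes 16, and each of these called genes was highest in number 2. Interferon response genes were highest in number 1, with 18 of 23 called, and the 9 of 19 immediate early genes called were lowest in number 2. With each gene represented by its brightest probe set, 15 genes were called between second numbers.

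Vegfa, the growth factor of blood vessels that hypoxia induces, had 6.57 in Qk sample 5_2, 10.3 and 11.2 in 6_1 and 9_1, and 9.86 and 10.4 in 6_3 and 9_3, against 10.8, 6.45 and 9.93 in L_1, L_2 and L_3. Its difference of number 2 from number 1 was -4.27 (limma adjusted p = 0.000125). Birc5, the mitotic protein survivin, had 7.61 in sample 5_2 and 5.08 to 5.67 in the other Qk samples, against 7.67 in L_2 and 5.15 and 5.53 in L_1 and L_3, and rose by 2.45 in number 2 over number 1. Ifit1 had 7.42 and 7.55 in samples 6_1 and 9_1 and 5.01 to 5.25 in the other Qk samples, against 7.84 in L_1, 5.98 in L_2 and 5.14 in L_3. Its second number thus spread Ifit1 by over 2 log2 units, against a difference of -0.38 with Qk suppressed.

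Fdps, an enzyme of the mevalonate pathway, had 8.80 in sample 5_2 and 6.53 to 6.91 in the other Qk samples, against 8.47 in L_2 and 6.41 and 6.97 in L_1 and L_3. Hmgcs1, the synthase at the entry of that pathway, rose by 1.80 in number 2 over number 1 (limma adjusted p = 0.00205). Its promoter is shown because it held the sterol regulatory element in the form TCACNCCAC, searched on both strands and marked in capitals.
Hmgcs1, chr13:119690194-119690313, plus strand: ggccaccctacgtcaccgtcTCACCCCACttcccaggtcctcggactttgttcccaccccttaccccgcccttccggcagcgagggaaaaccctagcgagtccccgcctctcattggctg
That form stood in 1 of 14 promoters of cholesterol synthesis genes, in none of the 19 interferon response promoters and in 1.22% of all promoters.

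**Figure D5:**
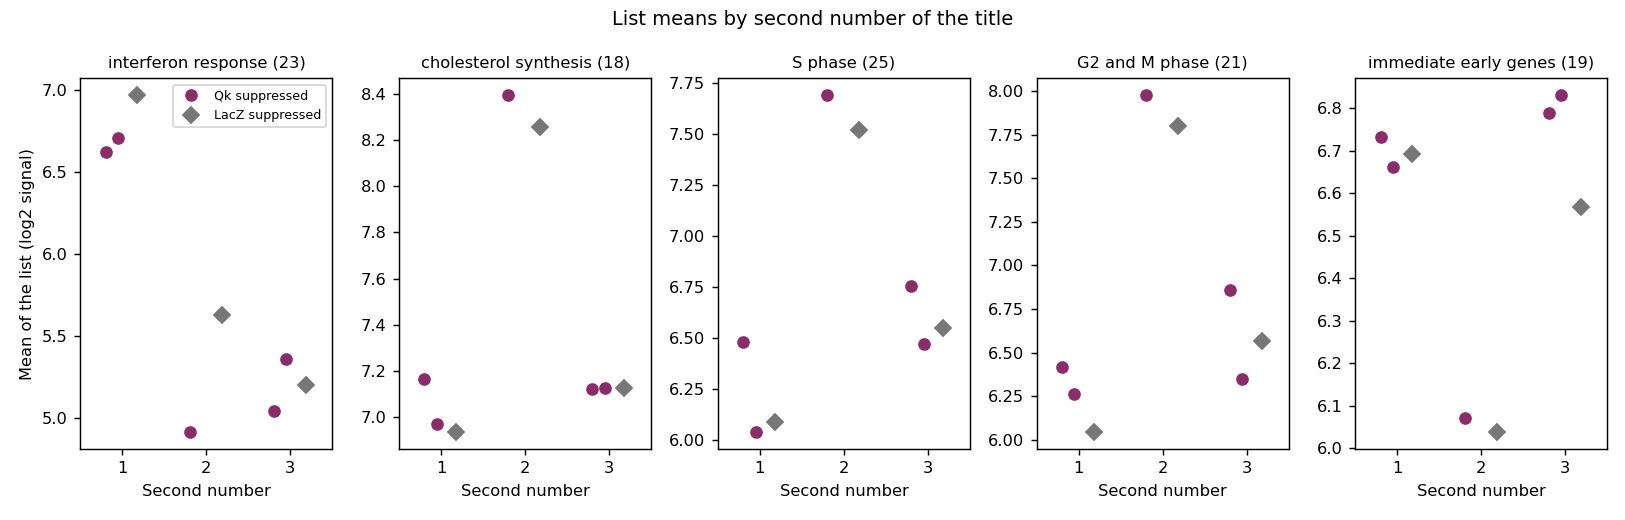
Points are the mean log2 signal of 5 gene lists in each sample, by second number, with Qk-suppressed samples as circles left of the LacZ-suppressed sample of the same number as a diamond. The interferon response is highest in number 1, cholesterol synthesis, S phase and G2 and M phase are highest in number 2.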

How the data were processed

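The values deposited lie on a log2 scale, as their range shows, and how the authors summarised and normalized them is not given in the sources used here. Per the labels, total RNA was biotin-labelled by the Affymetrix protocol. Of 269751 probe sets, 233753 name 1 symbol, and their mean per symbol gave 23152 genes (median 8 probe sets). Symbols were matched to RefSeq: 20836 were current, 2189 were updated, 97 were kept because the current name was taken, and 30 were unmatched. The array's genome build is not given, so no array positions are printed.

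The 8 arrays were fitted in limma 3.58.1 under R 4.3.3 (lmFit, eBayes) with group and second number. The 5 pairs of samples sharing a second number correlated at 0.22 to 0.57 after group means were removed, and the 10 others at -0.45 to 0.00, so the number was kept as a block. Array medians were 5.39 to 5.51, and the number of arrays limits precision. The tests were run on simulated data first. Probe set use left out probe sets under the 25th percentile and genes with fewer than 3 left.

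Members and lists were chosen with earlier results of these data known. Named by rule were called genes moving the same way in all 5 paired differences, Qk, Myb, 4 members a list at most, by smallest p, and the genes of smallest p up to 10 a direction. Predicted, clone, small RNA, receptor and pseudogene names were left out. For diffSplice, the 10 probe sets of smallest p were named. Alternatives were no block, averaged Qk samples, quantile normalization, the brightest probe set, a filter on dim signal, a variance trend, and each sample left out. Some list members are not reported here. Figures were drawn with matplotlib under Python.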

Additional observations from a re-analysis of the deposited data

Results flagged for a closer look

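Among the 62 groups of 5 Qk samples checked for a sample far from the others, 2 were found, and chance gives about 1 in 20. The mean of the cholesterol synthesis list was 8.40 in Qk sample 5_2, and the nearest other Qk sample was at 7.16. The mean of the immediate early list was 6.07 in sample 5_2, and the nearest other was at 6.66. Sample 5_2 is the Qk sample of second number 2, and LacZ sample L_2 of the same number had 8.26 and 6.04.

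By limma's test of number 6 minus number 9, Gbp11 (-1.87), Snora36b (-2.37), Snord111 (-1.87) and Tmem181b-ps (-1.66) were called (adjusted p = 0.0279 each). None of these genes was called with no replicate block or with the brightest probe set for each gene.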

How the results depend on the processing

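Gm5067 had an adjusted p of 0.000349 to 0.0441 under the alternatives other than the brightest probe set, where 0 genes were called (limma), and 1 gene was called with a variance trend. With no replicate block 1 gene was called, 946 had an unadjusted p under 0.05, and Qk differed by -0.22. Across the samples left out the Qk difference ranged from -0.30 to -0.18, and with the brightest probe set it was -0.02. The block changed no other gene's call for Qk suppression. For probe set use by diffSplice, 430 were called with no replicate block, 0 by the test with a spread of its own, and 307 (without L_3) to 1361 (without L_1) with a sample left out, with 454 without 6_3 and 587 without 9_3. Between second numbers, 15 genes were called with the brightest probe set and 438 (without 5_2) to 1543 with a sample left out, with 580 without L_2, 644 without L_1 and 689 without 9_1. For number 6 minus 9, 0 were called with no replicate block (limma) and 0 with the brightest probe set, and 4 (without 6_1) to 100 (without 9_1) with a sample left out, with 10 without 6_3 and 42 without 9_3. The cause of these shifts was not tested. Without L_2 or 5_2 the other sample of number 2 has no partner and adds nothing to the Qk difference. No difference reversed as a called value, and dim probe sets and 3 LacZ arrays limit precision.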
